A study of Mus musculus with 21 samples.

Results

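This report describes 9 activity-induced genes, the zinc finger factors Egr1, Egr2, Egr3 and Egr4, the orphan nuclear receptors Nr4a1, Nr4a2 and Nr4a3, the synaptic gene Arc and the neuronal transcription factor gene Npas4. They were chosen by symbol from the 24322 gene symbols of the deposited tables, and all 9 were found in all 21 libraries. The choice was made with the VPA and control values at postnatal day 5 in view, so that comparison is given below as a description of these genes and carries no test. Some of their values at the other ages were also known.

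Cells carrying green fluorescent protein under the Nestin promoter were sorted by flow cytometry from Nestin-EGFP mice of the C57BL/6 strain, and their polyadenylated RNA was sequenced. The dams of the VPA groups received valproic acid by mouth at 300 mg/kg/day on embryonic days 12, 13 and 14. The dams of the control groups received methylcellulose in the same way. Control and VPA libraries came from the forebrain of embryos (day 15, E15) and from the dentate gyrus of pups on postnatal day 5 (P5) and of mice aged 12 weeks, where a further VPA group had voluntary running. Each of the 7 groups had 3 libraries. All mice carried the Nestin-EGFP transgene, no running group without VPA was analysed here, and age and tissue cannot be told apart between E15 and the later ages. The transgene marks cells by promoter activity or by retained fluorescent protein, so a sorted cell need not be a stem cell.

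Egr, Nr4a, Arc and Npas4 are immediate early genes. In neurons their transcription starts within minutes of synaptic activity, through calcium and MAP kinase signals that act on factors already bound at the promoter, among them CREB and the serum response factor SRF, and their mRNAs are short-lived. Most of the Egr and Nr4a genes also respond to growth factors and stress in many other cell types, while Npas4 is known for a response to calcium entry that is largely restricted to neurons. Valproic acid is an antiepileptic drug that also inhibits histone deacetylases.

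The upstream sequence of these genes was examined because the same factors are thought to drive several of them. RefSeq promoter windows of build GRCm38.p6, covering 250 bases before to 50 bases after a start site, were matched by symbol for 6 of the 9 genes, namely Egr2, Egr4, Nr4a1, Nr4a2, Nr4a3 and Npas4. Both strands were searched for the full cAMP response element (CRE) TGACGTCA, its core TGACGT, which every full CRE also contains, the Nr4a monomer site AAAGGTCA, the Egr site GCGTGGGCG and the CArG box bound by SRF. The CRE core was found for 4 of the 6 genes, Egr2, Egr4, Nr4a3 and Npas4, and is held by 7.51% of all 32851 windows. Counts here are per gene and shares are per window, so they are not directly comparable. Egr2 had several windows, some overlapping, and counted if any matched, while each other gene had 1. The Egr2 window at its annotated gene start held neither a CRE core nor a CArG box. The CArG box was found only for Egr2 among the 6 genes and is held by 1.63% of windows. None of the 6 genes had a full CRE, an Nr4a site or an Egr site in these windows, against 1.79%, 1.51% and 0.612% of all windows. A match is a stretch of letters and not a measured binding site. Only exact matches were counted, so a gene without one may still hold a related site. The Nr4a1 window, from 101266596, lies inside the annotated gene, which starts at 101254269. Below are the exon-free parts of 4 windows, read 5′ to 3′ on the gene's own strand, with CRE cores (TGACGT, or ACGTCA on the other strand) and the CArG box in capitals; Egr2 is shown for its CArG box beside a CRE core, Egr4 and Nr4a3 for more than 1 CRE core (the Nr4a3 window has 3, of which 2 lie in the printed part, and the Npas4 window, not printed, has 2), and Nr4a1 as the most abundant Nr4a gene after birth, with neither.
Egr2, chr10:67537619-67537868, plus strand: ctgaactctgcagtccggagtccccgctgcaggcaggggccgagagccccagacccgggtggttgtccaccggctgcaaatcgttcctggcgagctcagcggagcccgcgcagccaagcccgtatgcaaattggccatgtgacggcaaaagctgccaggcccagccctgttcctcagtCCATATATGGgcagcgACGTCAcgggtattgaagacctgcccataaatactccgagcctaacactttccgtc
Egr4, chr6:85513590-85513839, minus strand: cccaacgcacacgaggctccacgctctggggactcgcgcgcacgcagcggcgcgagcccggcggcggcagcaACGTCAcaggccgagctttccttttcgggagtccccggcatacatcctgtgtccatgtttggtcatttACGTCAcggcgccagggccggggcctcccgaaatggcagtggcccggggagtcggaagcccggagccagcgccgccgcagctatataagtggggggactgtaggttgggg
Nr4a3, chr4:48045055-48045152, plus strand: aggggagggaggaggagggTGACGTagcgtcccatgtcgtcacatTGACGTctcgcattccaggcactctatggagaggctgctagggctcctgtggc
Nr4a1, chr15:101266596-101266845, plus strand: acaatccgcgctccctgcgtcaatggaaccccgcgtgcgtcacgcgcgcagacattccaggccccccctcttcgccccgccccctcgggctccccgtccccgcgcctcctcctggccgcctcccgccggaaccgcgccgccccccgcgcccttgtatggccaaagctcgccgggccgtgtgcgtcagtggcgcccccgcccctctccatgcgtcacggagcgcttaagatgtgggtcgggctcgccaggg

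In mm10, with GENCODE vM21 annotation, all 9 are protein-coding genes, and no other gene had exons overlapping theirs. Egr1 lies on chromosome 18 (34859823 to 34864984, plus strand), Egr2 on chromosome 10 (67535475 to 67542188, plus strand) and Egr3 on chromosome 14 (70077203 to 70082614, plus strand). Egr4 lies on chromosome 6 (85511121 to 85513589, minus strand) and Npas4 on chromosome 19 (4984355 to 4990316, minus strand). Nr4a1 and Arc share chromosome 15, at 101254269 to 101274795 on the plus strand and 74669083 to 74672570 on the minus strand. Nr4a2 is on chromosome 2 (57106830 to 57124003, minus strand) and Nr4a3 on chromosome 4 (48045153 to 48086447, plus strand).

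The values are read as FPKM, fragments scaled by transcript length and by the fragments mapped in the library. This unit is named at 12 weeks only and was inferred from the values at E15 and P5. Such scaling does not correct for differences in the other RNAs that a library holds. Levels can therefore differ between libraries, and between ages, for that reason too. No read counts were given and the depth is unknown. A library had 16116 or more symbols above 0 at E15, 17251 or more at P5, but 12019 to 15210 at 12 weeks. The third running library stood apart, with the fewest symbols above 0 and with 8 genes listed at 0 that had at least 20 FPKM in each of the other 20 libraries, so a value of 0 at this age says only that a gene was listed at 0. The third VPA library at E15 held choroid plexus markers (Ttr, Enpp2, Kcne2, Folr1, Clic6) at a summed 11120 FPKM, against 11.2 to 154.6 in the other 5 libraries of that age. Nes itself was present throughout, with group means from 10.1 to 17.4 FPKM. Summed mature neuron markers were also well above 0 in every library. The sums were 438 to 496 FPKM in the E15 libraries, 355 to 394 in the P5 libraries and 288 to 385 in the oldest. In controls at 12 weeks Snap25 and Rbfox3 of that list had means of 63.8 and 71.7 FPKM, while Slc17a7 and Syt1 had 2.42 and 5.19. The sum is therefore no measure of mature neurons alone. Pericyte markers summed to 586 to 2083 FPKM at 12 weeks. The sorted cells cannot be taken as stem cells alone. In such bulk libraries, fewer cells of a type and less RNA per cell cannot be told apart. The labels do not say whether the 3 libraries of a group came from separate litters, so p-values measure only the spread between these samples, which may be technical. Every library at 12 weeks held both of the sex-linked RNAs Xist (52.9 to 175 FPKM) and Ddx3y (6.42 to 31.8 FPKM). The cells of such a library need not come from a single animal.

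Among the Egr genes, Egr1 was by far the most abundant at every age and supplied 84.5% to 99.3% of the summed Egr FPKM of a library. In control libraries Egr1 had 17.1 ± 7.92 FPKM (SD, n = 3) at E15, 389.7 ± 34.3 at P5 and 682 ± 160.4 at 12 weeks. Ordered by mean level over all 7 groups, the E15 groups were lowest, VPA at P5 followed, then control at P5, the running group, and control and VPA at 12 weeks. Neighbours in that order did not overlap, except the 2 groups at E15 and the control and VPA groups at 12 weeks. Egr2, known for its part in hindbrain patterning and myelination, was under 0.6 FPKM in all 6 E15 libraries, and reached 19.4 ± 4.05 in P5 controls and 21.5 ± 1.16 in controls at 12 weeks. Egr3, which acts downstream of calcineurin signals in lymphocytes and in memory tasks in brain, had 0.826 ± 0.163, 12.6 ± 2.57 and 11.2 ± 2.95 FPKM in the same 3 control groups. Egr4 stayed under 0.6 FPKM in every E15 and P5 library. In controls at 12 weeks Egr4 had 5.90, 8.62 and 0.623 FPKM, the widest spread of any Egr gene within a control group at that age relative to its mean.

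The Nr4a genes, which encode receptors without a known physiological ligand, changed places between the embryonic forebrain and the later dentate gyrus. At E15 Nr4a3 was the leading member, with 66.0% to 68.4% of the summed Nr4a FPKM in control libraries, and Nr4a1 supplied 8.74% to 14.2%. At P5 the order was the opposite, with 77.1% to 79.4% from Nr4a1 and 13.7% to 15.05% from Nr4a3. Across the 9 libraries at 12 weeks Nr4a1 held 79.2% to 94.1%. In control FPKM, Nr4a1 had 4.04 ± 0.790 at E15, 132.6 ± 10.4 at P5 and 65.8 ± 17.0 at 12 weeks, and these 3 ranges did not overlap. Nr4a3 had 24.4 ± 3.12, 24.02 ± 2.59 and 4.51 ± 1.19, with overlapping E15 and P5 ranges and a separate, lower range at 12 weeks. Nr4a2, needed for midbrain dopamine neurons, lay between 5.14 ± 2.76 at 12 weeks and 12.2 ± 1.38 FPKM at P5 in controls. These levels across ages are a description, with no test.

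**Figure D1:**
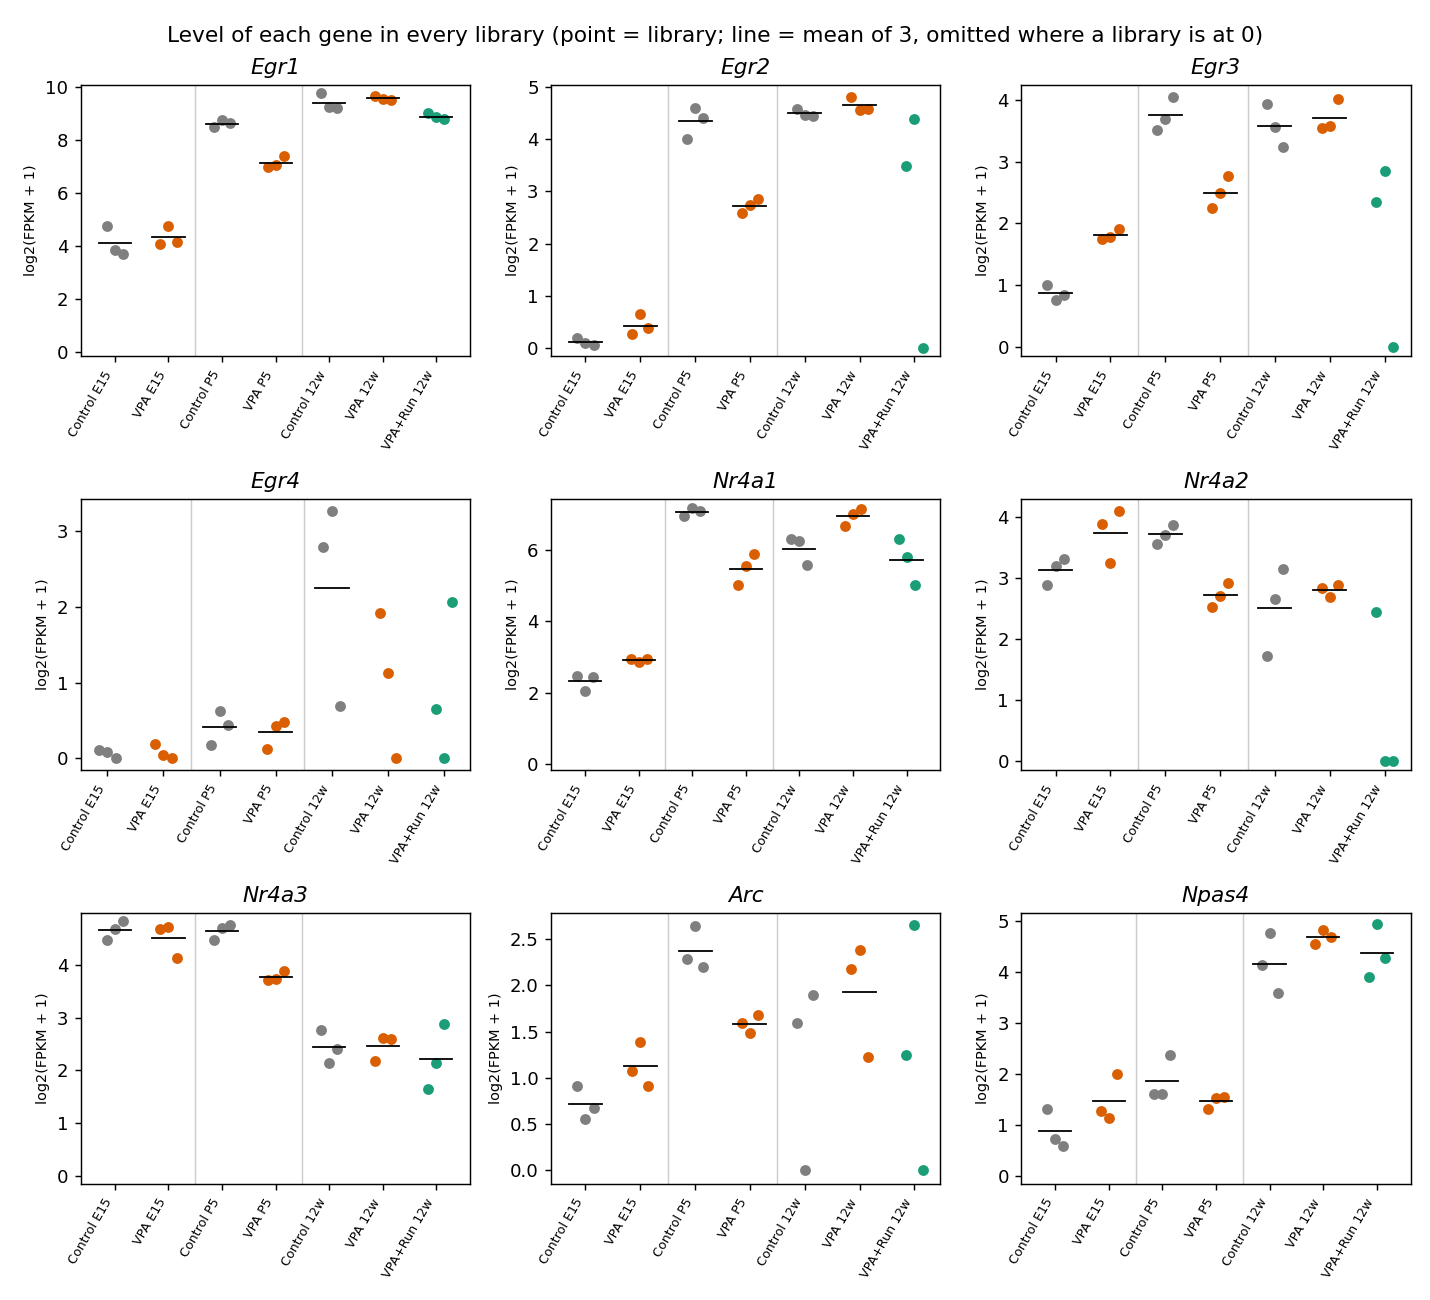
FPKM of each of the 9 genes as log2(FPKM + 1) (vertical axis, own scale per gene) in every library of the 7 groups (horizontal axis); points are libraries and lines are means of 3, left out where a library was listed at 0. Egr1 and Nr4a1 were low at E15 and higher in every later library, as were Egr2 and Egr3 except in the running group, where 1 library was at 0; Nr4a3 was lowest and Npas4 highest at 12 weeks, and for all genes but Egr4 the VPA points at P5 lie below the control points.

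Arc, whose protein trims glutamate receptors from the synapse and assembles into virus-like shells, was scarce throughout, with at most 5.31 FPKM in any library. Control Arc levels were 0.644 ± 0.211 FPKM at E15 and 4.24 ± 0.875 at P5, and 2.02, 0 and 2.72 FPKM in the 3 control libraries at 12 weeks. Npas4, a basic helix-loop-helix factor that pairs with Arnt or Arnt2 and regulates inhibitory synapses, followed a different course from Arc. Its control level was 0.877 ± 0.523 FPKM at E15, 2.74 ± 1.22 at P5 and 17.8 ± 7.59 at 12 weeks. All 9 libraries at 12 weeks had more Npas4 (10.9 to 29.7 FPKM) than any of the 12 younger libraries, of which the highest had 4.15. Markers of other cells also differed between the ages. In controls at E15, P5 and 12 weeks, median sums were 14.7, 95.1 and 1681 FPKM for pericyte markers. They were 1.04, 3.21 and 276 for endothelial and 9.61, 364 and 882 for oligodendrocyte precursor markers. Mean Hspa1a, a heat shock gene, was 0.567, 1.55 and 35.7 FPKM. The part of these in the levels across ages was not tested.

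**Figure D2:**
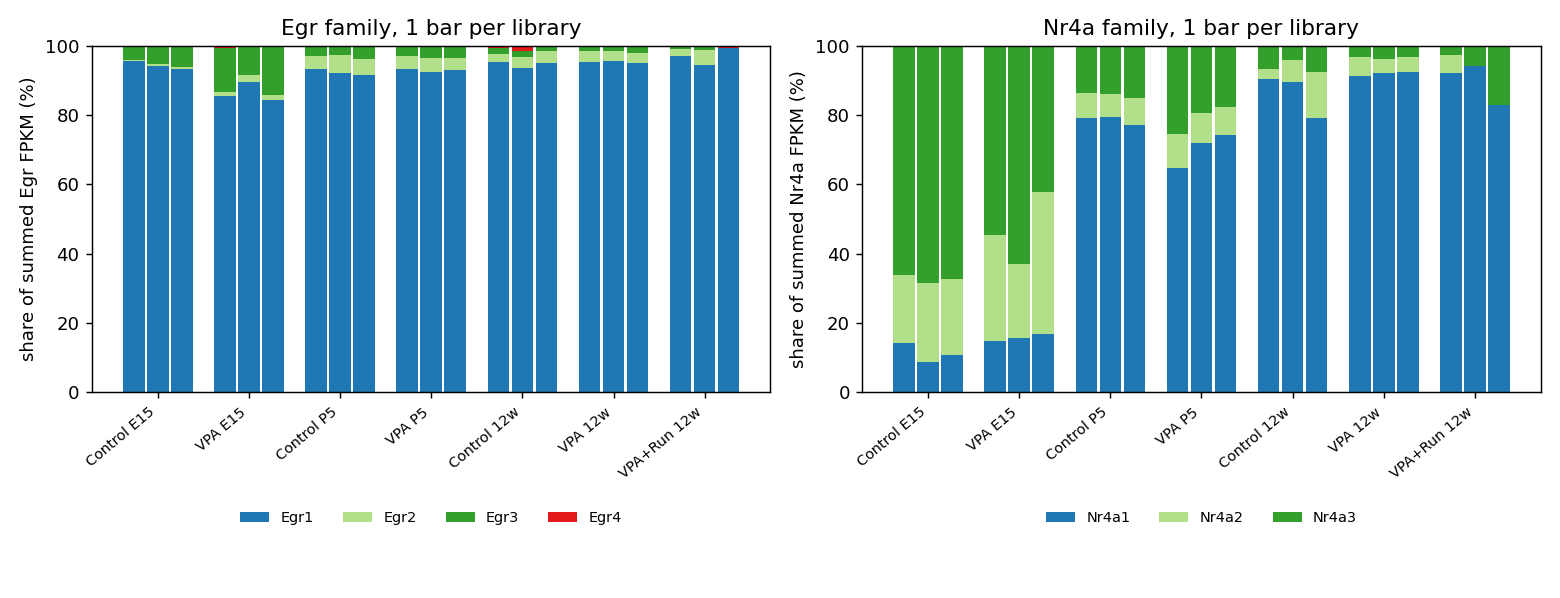
Share in percent (vertical axis) of the summed Egr FPKM (left) and summed Nr4a FPKM (right) held by each gene, with 1 bar per library and the 7 groups on the horizontal axis. Egr1 fills 84.5% or more of every Egr bar, while Nr4a3 fills 42.2% to 68.4% of the Nr4a bars at E15 and Nr4a1 64.8% or more of those at later ages.

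The comparison at E15 asked whether the genes differed in forebrain cells on the day after the last dose. No gene of the 9 passed the test; Egr3 and Nr4a1 were higher in every VPA than in every control library. Egr3 had 2.37, 2.45 and 2.77 FPKM in the VPA libraries and 1.01, 0.688 and 0.784 in the controls. The ratio of means was 3.06-fold (log2 difference 0.95, SE 0.13, limma adjusted p = 0.171, or 0.348 with no filter on low values). Egr3 passed the filter through its VPA libraries, as only 1 control reached 1 FPKM, so its being tested at all depended on the group where it was high. Nr4a1 had 6.70, 6.34 and 6.63 FPKM with VPA and 4.55, 3.13 and 4.44 without. These groups did not overlap either (1.62-fold, log2 difference 0.60, SE 0.13, limma adjusted p = 0.344). The embryonic level of Nr4a1 in both groups was far below that of either P5 group.

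Among the other Nr4a genes at E15, Nr4a2 had 13.8, 8.48 and 16.1 FPKM with VPA and 6.37, 8.18 and 8.92 in controls. One VPA library lay within the control range (log2 difference 0.61, SE 0.23, limma adjusted p = 0.45). Nr4a3, the most abundant Nr4a gene at this age, had 24.5, 25.3 and 16.6 FPKM with VPA and 21.2, 24.5 and 27.4 in controls. Its groups overlapped in part, with the lowest value in a VPA library and the highest in a control (log2 difference -0.15, SE 0.17). Nr4a3 held 42.2% to 63.1% of the family sum in the VPA libraries, each below the 66.0% of the lowest control library.

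Egr1 did not separate at E15, with 15.9, 26.1 and 16.6 FPKM in VPA and 26.3, 13.4 and 11.8 FPKM in control libraries (log2 difference 0.23, SE 0.31, limma adjusted p = 0.797). Npas4 had 1.41, 1.19 and 3.01 FPKM against 1.47, 0.650 and 0.506 (log2 difference 0.59, SE 0.29, limma adjusted p = 0.515). Its highest control library lay inside the VPA range, and it too passed the filter through the VPA libraries. Egr2, Egr4 and Arc were too low for the filter of at least 1 FPKM in at least 3 libraries and were not tested. Egr2 had 0.203, 0.574 and 0.298 FPKM with VPA against 0.147, 0.0723 and 0.0393, and Arc had 1.10, 1.61 and 0.884 against 0.875, 0.462 and 0.595. Both were higher in every VPA library, although the nearest Arc values differed by little. Egr4 had 0.138, 0.0278 and 0 FPKM with VPA and 0.0805, 0.0631 and 0 in controls, with no separation.

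Of the 6 genes kept at E15, 0 passed at an adjusted p of 0.05 in limma. Egr3, Nr4a1 and Nr4a2 had an unadjusted p below 0.05, all higher. So had 1301 of all 12345 genes in either direction, and nothing is read from the number. Array quality weights, which change how much each library counts, called 2 of the 6 higher and 1.64% of all genes. These were Egr3 (limma adjusted p = 0.024) and Nr4a1 (limma adjusted p = 0.0454). The fit of all 21 libraries called 0 of the 9 genes. Over all 12345 genes of the fit, 0% were called higher and 0.0405% lower, and the groups of 8.19% did not overlap with VPA higher. Since Egr3 and Npas4 were kept through the VPA libraries, no count or median over the 6 kept genes is set against these. With no filter, 4 of the 9 genes (Egr2, Egr3, Nr4a1 and Arc) did not overlap, all higher with VPA, against 7.54% of 18453 genes, and 0 of the 9 passed. Some values outside P5 were known when the genes were chosen, so nothing is read from that count. Set against the control of the same number, the VPA library was higher in 3 of 3 pairs for Nr4a2, in 2 for Egr1, Nr4a3 and Npas4 and in 1 for Egr4. For Egr2, Egr3, Nr4a1 and Arc, whose groups did not overlap, any pairing gives 3 of 3, so theirs adds nothing. The share of all genes with 3 of 3 was not computed. Without the third VPA library, which held the choroid plexus markers, the log2 difference was 0.90 for Egr3, 0.59 for Nr4a1, 0.43 for Nr4a2 and 0.33 for Npas4, and it was 0.04 for Nr4a3. The difference of Egr1 depended on single libraries, from 0.01 to 0.57 when each library was left out in turn.

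At P5 the VPA means of all 9 genes were below the control means. Nr4a1, Egr2, Egr1 and Egr3 were each 2.68-fold to 3.45-fold higher in control than in VPA libraries of the dentate gyrus, and Nr4a2, Arc, Nr4a3 and Npas4 were 1.56-fold to 2.18-fold higher. Since the genes were chosen for this comparison, the values are given with no test and are not evidence of an effect. Egr1 had 126, 131 and 165 FPKM with VPA and 355, 423 and 391 without. The highest VPA library thus had less than the lowest control, by a wide margin (log2 difference -1.47, SE 0.12). Egr2 had 5.03, 5.64 and 6.21 FPKM against 15.05, 23.02 and 20.2. Its log2 difference was -1.61 (SE 0.15), close to that of Nr4a1. Egr3 had 3.74, 4.63 and 5.79 FPKM against 10.5, 11.97 and 15.5, also with separate groups (log2 difference -1.25, SE 0.17). Egr4 was not kept by the filter; its 3 VPA libraries had 0.0911, 0.343 and 0.395 FPKM and its controls 0.135, 0.541 and 0.356, which overlapped.

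Of the Nr4a genes at P5, Nr4a1 had 31.1, 45.3 and 57.9 FPKM with VPA and 121.9, 142.6 and 133.2 in controls. The VPA libraries differed among themselves by more than the controls did (log2 difference -1.59, SE 0.20). Nr4a2 had 4.72, 5.51 and 6.52 FPKM against 10.8, 12.1 and 13.6 (log2 difference -1, SE 0.12), and Nr4a3 had 12.2, 12.2 and 13.7 against 21.1, 24.97 and 26.0 (log2 difference -0.87, SE 0.09). The share of Nr4a1, the Nr4a gene with the largest difference, was lower with VPA. Its share of the family sum was 64.8% to 74.1% with VPA and 77.1% to 79.4% in controls, and the share of Nr4a3 was 17.5% to 25.4% and 13.7% to 15.05%. The Egr family differed little in its proportions, with Egr1 at 92.5% to 93.4% of the sum with VPA and 91.6% to 93.3% in controls. Arc had 2.02, 1.80 and 2.21 FPKM with VPA and 3.90, 5.24 and 3.59 in controls (log2 difference -0.79, SE 0.14). Npas4 separated least, with 1.48, 1.87 and 1.94 FPKM against 2.03, 2.04 and 4.15. The nearest values of its groups almost touched, and 1 control library made most of the difference (log2 difference -0.40, SE 0.22, or -0.14 without the third control library).

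All 8 genes kept at P5 were lower in every VPA than in every control library, and 15.6% of all 13328 genes were too; nothing is read from that count, as the choice of genes used it. Their median log2 difference was -1.13, and the median of all genes was -0.00. Npas4 came nearest to overlapping, while the values of Egr4 interleaved. The P5 libraries also differed in sex-linked RNA: controls 1 and 2 held Xist and almost no Ddx3y, control 3 and VPA 1 and 3 held Ddx3y and little Xist, and VPA 2 held both. The part of sex in the differences was not tested.

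**Figure D3:**
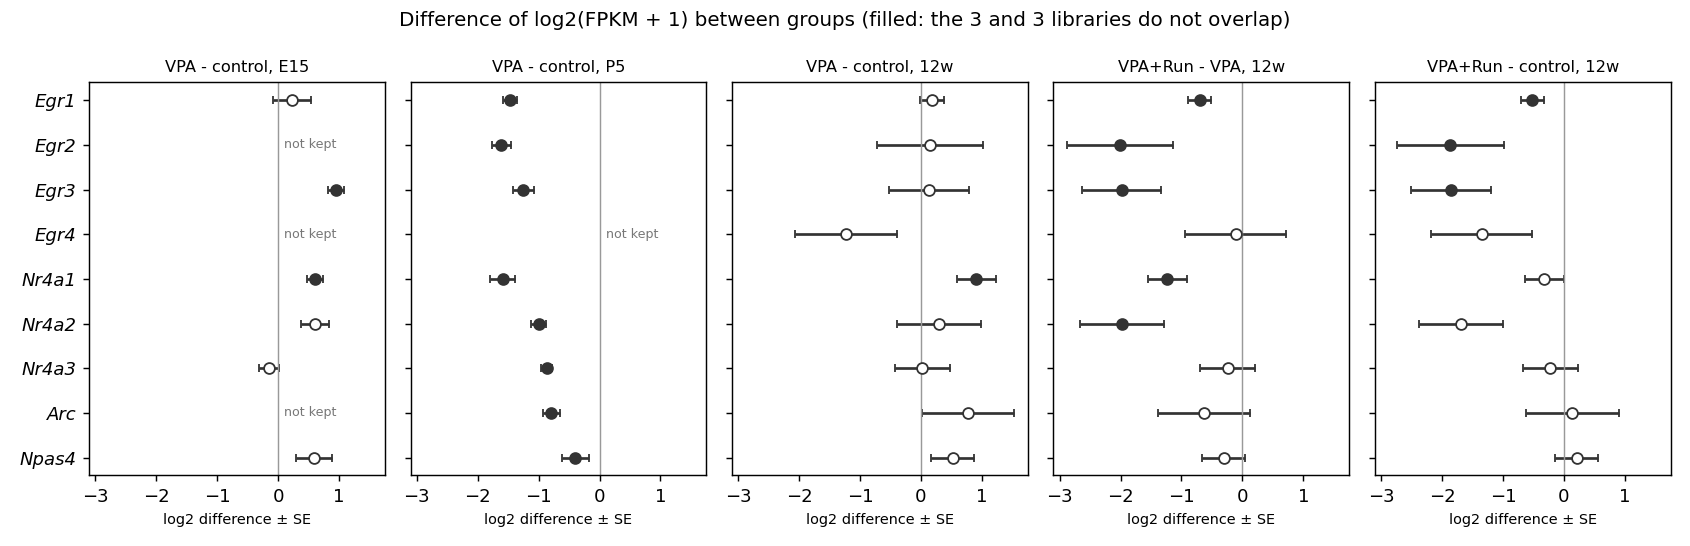
Difference of mean log2(FPKM + 1) (horizontal axis, with SE as bars) for each gene (vertical axis) in the 5 comparisons; filled points mark genes whose 3 and 3 libraries do not overlap, and genes under the filter are marked as not kept. At P5, the comparison in view when the genes were chosen, all 8 kept genes lie between -1.61 and -0.40. At 12 weeks 8 of 9 VPA differences are above 0, against 49.3% of all genes. All 9 running differences from VPA are below 0, and 45.8% of all genes were higher with running. Some values outside P5 were known when the genes were chosen, so nothing is read from these counts. No count is given at E15, where Egr3 and Npas4 were kept through the VPA libraries.

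Other genes of the same early program were read from lists that, like the 9 genes, were drawn up with earlier results known. Their counts at P5 are therefore a description and no independent evidence of a direction. Of 20 further rapid early-response genes, 19 were lower with VPA at P5 and 15 of them fell (limma, adjusted p below 0.05), with a median log2 difference of -1.12; of all genes 1.34% fell and 0.9% rose, and nothing is read from the contrast. Klf6, a zinc finger factor of injury responses, had 10.5 ± 0.949 FPKM with VPA and 26.6 ± 2.03 in controls (log2 difference -1.27). Ier2, an early-response nuclear protein gene, had 57.1 ± 4.61 against 128 ± 8.39 (log2 difference -1.15). Btg2, an antiproliferative gene of neurogenic progenitors, had 42.9 ± 3.14 against 91.9 ± 4.26 (log2 difference -1.08). The count of 15 was 7 without control 1, 6 without control 2 and 7 without VPA 2, where the genes that fell over the whole table went from 178 to 19, 17 and 29. With no filter on low values it was 7, beside 31 over the whole table.

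The factors and kinases upstream of these genes mostly did not pass the test at P5. Of 24 tested, 1 fell, the gene of SRF itself, with 18.8 ± 1.06 FPKM in VPA and 32.7 ± 1.79 in control libraries (log2 difference -0.77, limma adjusted p = 0.00485). The median over the 24 was -0.06. Srf was the gene of that list with the smallest p at E15 too, where its difference had the other sign, with 31.7 ± 3.56 and 19.2 ± 1.02 FPKM (0.69, limma adjusted p = 0.171). None of the 7 partners and corepressors passed at P5 in limma, and 2 had an unadjusted p below 0.05; Nab2, which represses Egr factors and is itself an Egr target, had 6.70 ± 0.802 against 9.07 ± 0.846 FPKM (-0.39, limma adjusted p = 0.093). None of 14 tested later neuronal activity genes passed in limma, and their median was -0.23. Of the 14, 4 had an unadjusted p below 0.05, beside 3193 of all 13328 genes. The one with the smallest p was Dusp5, a phosphatase that inactivates ERK kinases (1.49 ± 0.574 against 3.35 ± 0.637 FPKM, limma adjusted p = 0.0774). Of 11 tested stress and dissociation genes 1 fell, the cytokine signal inhibitor Socs3, with 17.6 ± 2.68 against 34.8 ± 5.15 FPKM (-0.95, limma adjusted p = 0.0282), and the median of that list was -0.10.

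Markers of other cells also moved at P5. Summed erythroid markers were 92.7 to 396 FPKM with VPA and 727 to 1033 in controls, and 2 of them, Hba-a1 and Alas2, fell. Summed pericyte markers were 136 to 253 against 87.2 to 103.5 FPKM, and 2 of 5, Vtn and Pdgfrb, rose. Endothelial sums were 7.004 to 9.53 against 2.75 to 4.80, and microglial sums 9.77 to 11.96 against 6.06 to 7.78. All 8 stem cell markers were lower, and Sox9 and Sox2 fell, with Sox9 at 25.1 ± 0.695 against 41.0 ± 3.35 FPKM. Mature neuron sums were 374 to 394 with VPA and 355 to 380.1 in controls. The part of these cells in the differences of the 9 genes was not tested.

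At 12 weeks, VPA and control mice did not differ in any of the 9 genes by the test. Nr4a1 alone separated, with 100.4, 126.8 and 140.3 FPKM with VPA and 77.1, 74.2 and 46.2 in controls. Each VPA library was above each control (1.86-fold, log2 difference 0.91, SE 0.32, limma adjusted p = 0.65), the opposite order to that at P5. Npas4 had 22.3, 27.2 and 24.5 FPKM against 16.5, 26.0 and 10.9, with 1 control inside the VPA range (log2 difference 0.52, SE 0.35, limma adjusted p = 0.854). Egr1 had 808, 748 and 729.6 FPKM against 867, 594.6 and 584.5, and the highest of the 6 values was control 1 (log2 difference 0.18, SE 0.19, limma adjusted p = 0.932). That library held microglial markers at a summed 148 FPKM, against 16.4 and 25.7 in the other controls. The Egr1 difference was 0.37 without control 1 (limma adjusted p = 0.654), 0.10 without control 2 and 0.08 without control 3. The part of microglia in the Egr1 values was not tested. Egr2 had 26.7, 22.4 and 22.9 against 22.8, 20.9 and 20.7 FPKM, which overlapped, and Egr3 had 10.7, 10.98 and 15.2 against 14.3, 10.8 and 8.45. Their log2 differences were 0.15 and 0.13, small beside SEs of 0.87 and 0.65.

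The scarcer genes were not measured well at this age. Egr4 had 2.80, 1.19 and 0 FPKM with VPA and 5.90, 8.62 and 0.623 in controls (log2 difference -1.23, SE 0.83). It was the only one of the 9 with a lower VPA mean, and its groups overlapped. Arc had 3.52, 4.22 and 1.34 FPKM with VPA and 2.02, 0 and 2.72 in controls, also overlapping (log2 difference 0.77, SE 0.76). Nr4a2 had 6.15, 5.43 and 6.34 against 2.30, 5.32 and 7.80 FPKM, and Nr4a3 had 3.49, 5.15 and 5.002 against 5.79, 3.43 and 4.31. For both, the 3 VPA values lay inside the control range. Of the 9 genes, 0 passed in limma and 1, Nr4a1, had an unadjusted p below 0.05, and a fit of all 21 libraries also called 0. Over all 13847 genes 0 passed, and 885 had an unadjusted p below 0.05. In 7.83% of all genes every VPA library was above every control, against 1 of these 9, and the median difference was 0.18 over the 9 and -0.01 over all genes. Some values outside P5 were known when the genes were chosen, so nothing is read from these counts. All 5 pericyte and all 5 endothelial markers were lower with VPA (median log2 differences -0.90 and -1.05). All 5 oligodendrocyte precursor markers were higher (0.94), and none of these markers passed in limma. The part of these cells in the differences of the 9 genes at 12 weeks was not tested.

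The running comparison asked whether voluntary exercise changed the genes in adults exposed to VPA before birth. All 9 means were lower in the running group, and Egr1, Egr2, Egr3, Nr4a1 and Nr4a2 were lower in every running library than in any VPA library, but none passed the test. Egr1 had 512, 460.0 and 434.5 FPKM with running and 808, 748 and 729.6 without. The groups were far apart relative to their spread (1.63-fold lower, log2 difference -0.70, SE 0.19, limma adjusted p = 0.216). Nr4a1 had 78.4, 54.5 and 31.2 FPKM with running and 100.4, 126.8 and 140.3 without (2.24-fold lower, log2 difference -1.23, SE 0.32, limma adjusted p = 0.204). Its running values lay in and around the control range of 46.2 to 77.1 FPKM. This was the smallest adjusted p among the 9.

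Egr2, Egr3 and Nr4a2 were listed at 0 in the third running library, the one that stood apart, so their fitted differences depend on the pseudocount of 1. Egr2 had 10.2, 19.9 and 0 FPKM with running against 22.4 to 26.7 without, and its log2 difference moved from -2.01 to -0.70 without that library. Egr3 had 4.07, 6.22 and 0 FPKM against 10.7 to 15.2, and its difference moved from -1.98 to -1.12. Nr4a2 had 4.45, 0 and 0 FPKM against 5.43 to 6.34, with differences of -1.98 and -1.58. The limma adjusted p of the 3 genes was 0.417, 0.302 and 0.318. Egr1 and Nr4a1 moved less, to -0.65 and -0.88.

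The other genes did not separate with running. Nr4a3 had 2.13, 3.40 and 6.36 FPKM (log2 difference -0.24, SE 0.45) and Npas4 had 13.9, 29.7 and 18.3 (-0.31, SE 0.35), both with the VPA values inside their range. Arc had 1.37, 5.31 and 0 FPKM (-0.63, SE 0.76) and Egr4 had 0.567, 0 and 3.19 (-0.11, SE 0.83). For Arc and Egr4 the 3 libraries ran from 0 to above the highest VPA library, so no direction can be read.

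In all, 0 of the 9 genes passed in limma for running against VPA, 5 had an unadjusted p below 0.05, and of all 13847 genes 0 passed and 1566 had an unadjusted p below 0.05. The groups of 5 of the 9 did not overlap, with running lower, against 8.48% of all genes, and the median difference was -0.70 over the 9 and -0.05 over all genes. A fit of all 21 libraries together, 12 of them from the younger ages, called 3 of them lower, Egr3, Nr4a1 and Nr4a2, and 6.74% of all genes. Against the unexposed controls, which share the running libraries with the comparison above, 7 of the 9 were lower and 0 passed. An unadjusted p below 0.05 was reached by 3 of the 9 and by 1074 of all 13847 genes. Egr1 (log2 difference -0.52, SE 0.19), Egr2 (-1.86, SE 0.87) and Egr3 (-1.85, SE 0.65) did not overlap the controls, again lower, against 7.24% of all genes. Nr4a1 overlapped them (-0.32, SE 0.32), and Npas4 and Arc had differences of 0.21 and 0.14. The all-library fit called 1 of the 9 lower in this comparison, Egr3 (limma adjusted p = 0.0334), and 3.57% of all genes. Some values outside P5 were known when the genes were chosen, so nothing is read from the counts of both running comparisons.

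The 20 further rapid genes mostly had the signs of the 9 genes at 12 weeks, and none passed in limma. Over all 13847 genes at 12 weeks, 885 had an unadjusted p below 0.05 for VPA against control. For running against VPA 1566 had one, and at E15 1301 of 12345 genes. The list was drawn up with earlier results known, so nothing is read from the counts below. With VPA, 17 of 20 were higher than in controls, 7 at an unadjusted p below 0.05, with a median log2 difference of 0.50. The AP-1 gene Fosb had 168 ± 44.1 against 72.2 ± 7.35 FPKM (1.18, limma adjusted p = 0.51). With running, 18 of 20 were lower than with VPA, and 13 had an unadjusted p below 0.05, with a median of -0.70, and Junb, another AP-1 subunit gene, had 77.05 ± 20.8 against 143 ± 12.7 FPKM (-0.91, limma adjusted p = 0.165). At E15, 14 of 17 tested were higher with VPA, with a median of 0.28, none called and 8 at an unadjusted p below 0.05, and Junb had 7.18 ± 0.556 against 3.79 ± 0.712 FPKM (0.78, limma adjusted p = 0.291). None of the tested later neuronal, upstream, partner or stress genes passed in limma at E15 or in the 3 comparisons at 12 weeks, and 0 to 4 genes of each of these lists had an unadjusted p below 0.05.

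**Figure D4:**
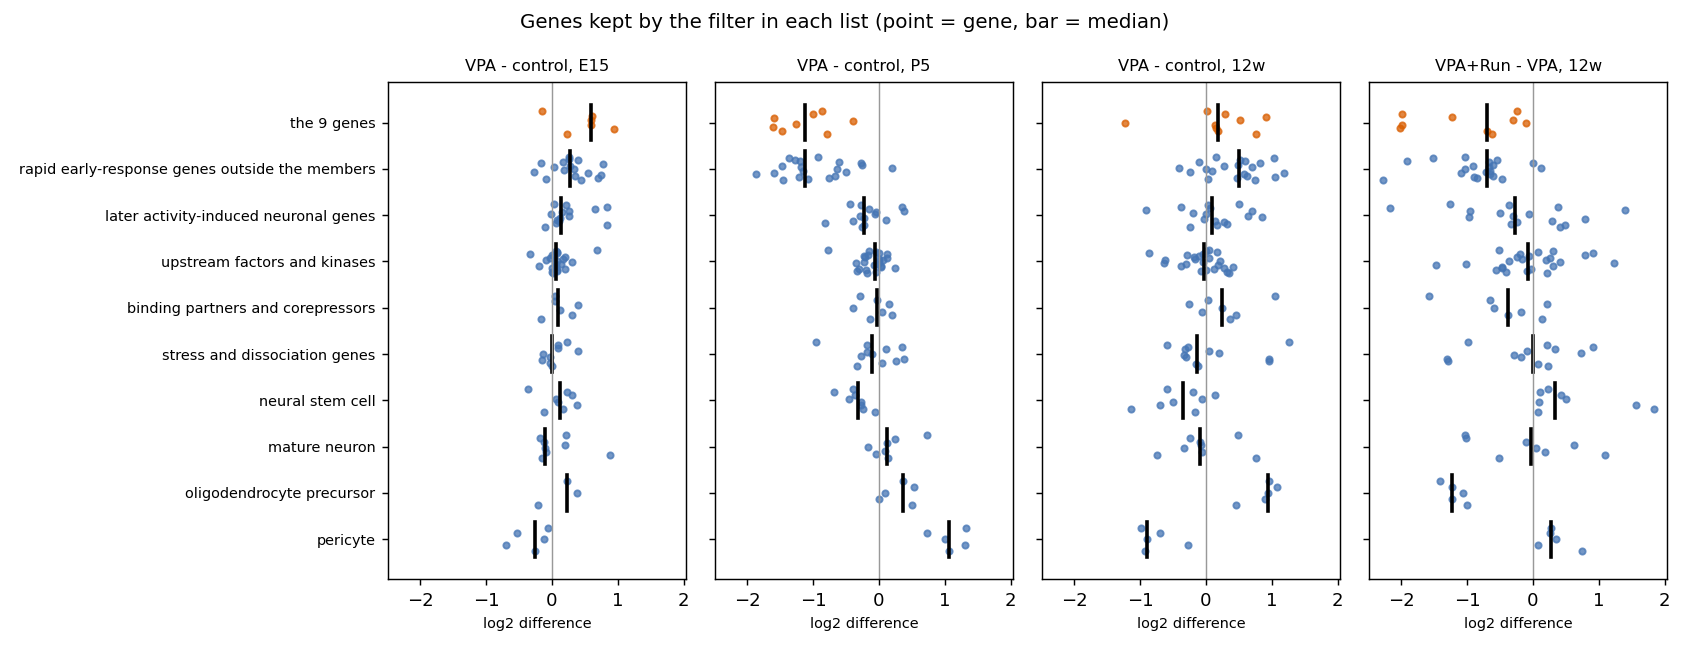
Log2 difference (horizontal axis) of each gene kept by the filter in the 9 genes, the 5 related lists and 4 marker lists (vertical axis) for 4 comparisons; points are genes and bars are medians. The further rapid genes have medians of 0.28, -1.12, 0.50 and -0.70 from left to right. For the 9 genes the medians are -1.13 at P5, over the 8 kept, then 0.18 and -0.70 at 12 weeks. Their E15 median is not read, as Egr3 and Npas4 were kept through the VPA libraries. Both sets were chosen with earlier results known, so nothing is read from their likeness. Pericyte markers also lie away from 0 at P5 (median 1.07) and, with the other sign, for VPA against control at 12 weeks (-0.90). So do oligodendrocyte precursor markers in the 12-week comparisons shown (0.94 and -1.22).

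Several other values moved with the running comparison. Summed oligodendrocyte precursor markers (Pdgfra, Cspg4, Sox10, Olig1, Olig2) were 1354 to 2399 FPKM with VPA, 843 to 1274 in controls and 726 to 906 with running, and all 5 genes were lower in every running than in every VPA library. Hspa1a, a heat shock chaperone gene, had 67.1 ± 9.58 FPKM with VPA, 35.7 ± 15.3 in controls and 28.8 ± 13.5 with running. Its list of stress and dissociation genes had no common direction. Of the 12 tested, 6 were higher and 6 lower with running than with VPA. Their summed FPKM was 1548 to 1704 with VPA and 1692 to 2190 with running. All 8 stem cell markers were higher with running than with VPA and none passed in limma; Hopx had 234.7 ± 67.3 against 66.7 ± 26.5 FPKM and Id4 113.8 ± 19.2 against 39.1 ± 13.2. Ttr, of the choroid plexus, had 0.088, 316 and 558 FPKM with running and 18.05, 87.4 and 22.6 with VPA. Mature neuron sums overlapped, at 293 to 345 FPKM with VPA, 341 to 362 in controls and 288 to 385 with running. Relative depth, estimated from small steps among low values, was 0.844 to 1.74 with VPA and 0.564 to 1.14 with running, from few genes. The part of these in the differences of the 9 genes was not tested.

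Profiles over the 7 group means of log2(FPKM + 1) were compared by Pearson correlation among 12548 genes, as a description; the points share tissue and age, and the low E15 groups weigh heavily. Nearest to Egr1 were Tob2 (r = 0.997), Dennd5a (0.994), Junb (0.993), Megf10 (0.992) and Phlpp1 (0.992), while among the 9 genes Egr2 and Nr4a1 both had 0.949. Nearest to Nr4a1 were Wdsub1 and Vps13c (both 0.986), Cdk2 (0.985), Irf1 (0.984) and Fos (0.982). Pcgf5 (0.981) and Ppp1r15b (0.977) led for Egr3, and Elmsan1 (0.989) and Kif24 (0.976) for Arc. Egr3 and Egr2 had an r of 0.932. Nr4a3 ran against Egr1, with an r of -0.755, and Nr4a2 had -0.459.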

How the data were processed

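Polyadenylated RNA of sorted Nestin-EGFP cells was measured in 21 libraries, 3 in each of 7 groups. The submitters' processing notes list Cufflinks, Cuffdiff, Bowtie2 and TopHat and the mm10 build; which versions were run is not given in the sources used here. FPKM values, as deposited, cover 24322 symbols. The deposited headers name FPKM at 12 weeks only, and the unit at E15 and P5 was inferred from the values. No counts were analysed, so depth is unknown, and 0 sample columns were left unused. Strand was not stated.

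Values were analysed as log2(FPKM + 1), which understates changes of low genes. A fit kept genes that reached 1 FPKM in 3 or more of its libraries. Linear models with an intensity trend were fitted per age with limma 3.58.1 in R 4.3.3, with Benjamini-Hochberg adjustment over all genes and a threshold of 0.05. Tables were made with Python 3.11.15. The fits were tested on simulated data.

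The 9 genes and all lists were chosen with earlier results of these data known. All 9 are named. Of other lists, up to 3 genes per direction past the threshold with the smallest p, or up to 2 by value where none passed, could be named. For likeness, up to 5 genes with the highest correlation among those with a mean of at least 1 FPKM, numbered gene models left out, could be named.

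Same-numbered libraries deviated together at E15 (correlations 0.126, 0.115 and 0.228), so by the rule used their numbers were taken as pairs there. The labels give only replicate numbers and state no pairing. At E15, replicate 2 of control and VPA held Xist (103 and 163 FPKM) and almost no Ddx3y. Replicates 1 and 3 of both groups held Ddx3y and little Xist. The part of sex in these correlations was not tested. The main E15 fit had no block. With the replicate block, the smallest limma adjusted p among the 6 kept genes was 0.502. A fit with a replicate block is among the alternatives, with other pseudocounts, filters, scalings, weights and sets of libraries.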

Additional observations from a re-analysis of the deposited data

Results flagged for a closer look

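In 4 genes the VPA difference had opposite signs at E15 and P5, with groups that did not overlap at either age; so did 1.36% of 17983 genes above 0 at both ages, higher at E15 and lower at P5. The P5 values were in view when the genes were chosen, so nothing is read from the count. The difference between the ages was not tested, and tissue changes with age. Nr4a1 had log2 differences of 0.60 and -1.59, which are 2.18 apart. Egr3 had 0.95 and -1.25, a gap of 2.20. Egr2 had 0.31 and -1.61, a gap of 1.92, and Arc had 0.41 and -0.79, a gap of 1.20; both were below the filter at E15, where their values were at most 1.61 FPKM. Nr4a1 also had opposite signs at P5 and 12 weeks, -1.59 and 0.91, so that the P5 difference minus the later one was -2.49; this was not tested either.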

How the results depend on the processing

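The 41 results on the 9 genes were recomputed under 705 alternatives. Of these, 678 counted as the same. Outside P5 that means the sign and the side of the threshold were kept. At P5, with no test, it means the sign was kept and the change was within the replicate spread. Sizes could still differ, as for Egr2 with running against VPA, from -2.01 to -0.70. Of the rest, 6 passed the threshold newly, 1 moved beyond the replicate spread (Arc at P5, -1.03 with a pseudocount of 0.1) and 20 changed sign. Counts of called genes among the 9 moved to 2 at E15 with array quality weights, and to 3 for running against VPA and 1 for running against control in a fit of all 21 libraries; all other settings and each left-out library gave 0. With the replicate block, 0 of the 9 were called in any tested comparison, and 11 of the 20 further rapid genes were called lower at P5. At P5 and 12 weeks same-numbered libraries did not all deviate together (correlations from -0.082 to 0.094), so they share only a number.

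The E15 count without overlap was 4 with no filter, 1 with a filter at 5 FPKM and 4 in the fit of all libraries. Leaving out each library gave 2 to 4 at E15, where only the removal of control 1 gave 4. It gave 1 to 3 for VPA at 12 weeks, 5 to 6 for running against VPA and 3 to 5 for running against control, where 5 came from leaving out the third running library. At P5 leaving out a library could not lower the count of 8, nor could a restriction to libraries with similar sex-linked RNA, so neither bears on it. The recounts outside P5, those of the further rapid genes and that restriction were chosen after seeing the data. The further rapid genes called at P5 numbered 7 with no filter and 6 to 16 with each library left out.

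Signs turned for Egr4 with running against VPA under quantile normalization (0.21) and for Nr4a1 with running against control under array weights (0.04). Over left-out libraries they turned for Nr4a3 at E15 (-0.25 to 0.04). For VPA at 12 weeks they turned for Egr3 (-0.03 to 0.31), Nr4a2 (-0.10 to 0.61) and Nr4a3 (-0.13 to 0.18). For running against VPA they turned for Egr4 (-0.69 to 0.34), Nr4a3 (-0.57 to 0.05) and Arc (-1.31 to 0.02). For running against control they turned for Nr4a1 (-0.62 to 0.03), Nr4a3 (-0.55 to 0.07), Arc (-0.54 to 0.79) and Npas4 (-0.08 to 0.51). The cause was not tested. Depth is unknown, and values listed at 0 limit Egr2, Egr3, Egr4, Nr4a2 and Arc at 12 weeks.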
